A study of Mus musculus with 3 samples.

Results

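The 10 Wnt ligand genes described here were *Wnt2b*, *Wnt3*, *Wnt3a*, *Wnt4*, *Wnt5a*, *Wnt5b*, *Wnt6*, *Wnt7b*, *Wnt8a* and *Wnt11*, taken by symbol from the gene tables of endoderm, mesoderm and epiblast of the mouse embryo. They are 10 of the 19 Wnt genes of the mouse and 10 of the 17633 genes that the 3 tables list between them. All 10 had reads in all 3 germ layers. The germ layers came from embryos of the outbred ICR strain at embryonic day 7.5 (E7.5), with no mutant allele or treatment named in the labels. The extra-embryonic part was cut away, the layers were parted with enzymes and needles, and the piece called epiblast held both the neuroectoderm and the primitive streak. RNA was pooled over many embryos and sequenced as 1 library per layer, so that no value below has a replicate check. All intervals cover counting error only, and each test compares a pair of libraries and not the germ layers as conditions.

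Wnt proteins are secreted, lipid-modified signals that bind Frizzled receptors together with co-receptors such as Lrp5, Lrp6, Ror2 and Ryk. Some ligands, among them Wnt3, Wnt3a and Wnt8a, act mainly by stabilizing beta-catenin, which switches on genes with the Tcf/Lef factors, whereas Wnt5a, Wnt5b and Wnt11 are best known for signalling without beta-catenin, through cell polarity and movement. In the gastrulating mouse embryo, Wnt signalling is needed to form the primitive streak and mesoderm and to lengthen the body axis.

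The endoderm library had 41.7 M reads counted on genes, the mesoderm library 40.8 M and the epiblast library 42.7 M. Levels are given as RPKM, the reads of a gene divided by its length in kilobases and by the M reads counted on genes. Endoderm markers were highest in the endoderm library (7 of 7), mesoderm markers in the mesoderm library (6 of 6) and epiblast markers in the epiblast library (4 of 5, *Fgf5* being the exception). Other cell types could be seen in the same markers. Primitive streak markers had a summed RPKM of 107 (endoderm), 99.9 (mesoderm) and 275 (epiblast), and node markers of 65.7, 3.32 and 13.6. Most of each streak sum was *T* (93.7, 74.8 and 228.5). *T* and *Eomes* (9.51 and 7.01) were higher in endoderm than in mesoderm. *Mixl1* (1.92 and 7.77) and *Fgf8* (1.77 and 10.3) were lower in endoderm than in mesoderm. Markers of extra-embryonic visceral endoderm summed to 1153 in endoderm and to 5.34 and 3.52 in the other layers. Trophoblast markers summed to 36.9, 14.6 and 17.2, with *Tpbpa* and *Prl3d1* unlisted. These sums hold *Eomes*, which is also a streak marker, and without it they were 27.4, 7.56 and 2.65. *Plac1* (19.9) and *Esx1* (7.11) made up most of the 27.4 in endoderm. *Elf5* (0.108, 0.133 and 0.328) and *Ascl2* (0.268, 1.12 and 1.63) were instead lowest in endoderm and highest in epiblast. Primitive erythroid markers reached at most 4.44 (mesoderm) and maternal decidua markers at most 5.92 (endoderm), with *Hbb-y*, *Hba-x* and *Prl8a2* unlisted. In bulk RNA, fewer cells of a type and less RNA per cell cannot be told apart.

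The 3 layers had different sets of ligand RNA. *Wnt8a* and *Wnt3a* led in epiblast, *Wnt5a* and *Wnt2b* in mesoderm, and in endoderm no ligand passed an RPKM of 5. Of the 10 genes, epiblast had the highest value for 7, mesoderm for 2 and endoderm for 1, and 8 were lowest in endoderm. The RPKM summed over the 10 genes was lowest in endoderm (10.5), 3.65 times that in mesoderm (38.5) and 6.22 times that in epiblast (65.5). Summed as reads without the division by length, the genes had 1433, 5510 and 6889 reads, or 34.4, 134.9 and 161.3 for each M reads of the library. On that scale epiblast exceeded mesoderm by 1.20-fold, against 1.70-fold by RPKM. The lengths in the tables ran from 1519 bases for *Wnt8a* to 4273 for *Wnt5a*.

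**Figure D1:**
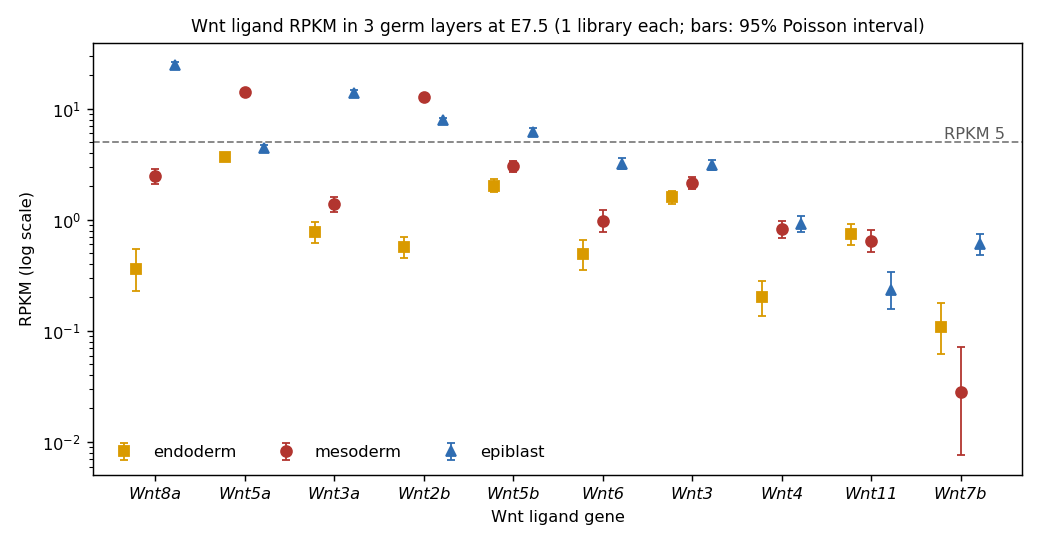
RPKM (log scale) of the 10 Wnt ligand genes in endoderm (squares), mesoderm (circles) and epiblast (triangles), 1 library each, ordered by highest RPKM, with bars for the exact 95% Poisson interval and a dashed line at RPKM 5. *Wnt8a* in epiblast is the highest point at 25.0, *Wnt5a* and *Wnt2b* are the mesoderm circles above the line, and no endoderm square is above it.

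Among the ligands that act mainly through beta-catenin, *Wnt8a* showed the widest range. It is made in the posterior epiblast and streak and lies on GRCm38 chromosome 18, 34542313 to 34548273, plus strand. The endoderm library held 23 of its reads, mesoderm 153 and epiblast 1620, for RPKM of 0.364, 2.47 and 25.0. The epiblast level had a counting interval of 23.8 to 26.2, and 18.7% of the genes with reads in that library were higher. The epiblast value was 68.7-fold the endoderm value (95% counting interval 45.6 to 108.7) and 10.1-fold the mesoderm value (8.58 to 12.0). Both differences met the criteria used for differential expression, which were RPKM>5 in at least 1 of the pair, Fold Change>2 and FDR<0.001 by the Audic and Claverie exact test on reads. Mesoderm in turn was 6.78-fold above endoderm (4.36 to 11.0), but with neither library over an RPKM of 5.

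*Wnt3a*, which is needed for the paraxial mesoderm and tail, had nearly the same profile. The gene spans chromosome 11, 59248033 to 59290752, on the minus strand. Endoderm had 90 reads of it, mesoderm 157 and epiblast 1662, and its RPKM was 0.774, 1.38 and 13.9. Epiblast was thus 18-fold above endoderm (14.6 to 22.5) and 10.1-fold above mesoderm (8.59 to 12.0), and both differences met the criteria. Mesoderm was 1.78-fold above endoderm (1.36 to 2.33), which did not. *Wnt8a* and *Wnt3a* kept about the same share of their epiblast level in mesoderm (9.87% and 9.88%), but in endoderm *Wnt8a* was at 1.46% and *Wnt3a* at 5.55%. The 4 epiblast markers highest in epiblast stood in the mesoderm library at 0.656% (*Utf1*), 3.10% (*Sox2*), 11.5% (*Dnmt3b*) and 23.1% (*Pou5f1*) of their epiblast RPKM, and in endoderm at 1.44% (*Sox2*) to 17.2% (*Dnmt3b*). The shares of both ligands lay within the first range, and the part of such cells in the mesoderm and endoderm values was not tested.

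*Wnt3*, the ligand that starts the primitive streak, differed least between the layers among the genes of this kind. It lies on chromosome 11 too, 103774150 to 103817957, plus strand. Reads numbered 208, 272 and 415 in the order endoderm, mesoderm, epiblast, and its RPKM was 1.60, 2.14 and 3.12. None of its 3 ratios reached a Fold Change of 2: the largest was 1.95 for epiblast over endoderm (1.64 to 2.31), and epiblast exceeded mesoderm by 1.46-fold (1.25 to 1.71). *Wnt3* was the only member that met the Fold Change and FDR criteria together in no pair, even without the RPKM threshold.

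The base sequence before the transcription start is shown for 3 members whose layers differ or that hold a motif of interest: *Wnt3a*, highest in epiblast with no Tcf/Lef core, and *Wnt5b* and *Wnt11*, the members with such a core. The letters searched on both strands were CTTTGA, the core bound by Tcf/Lef factors, and TCACAC, a T-box core. Both were searched in the 250 bases before each start in the RefSeq promoters of GRCm38.p6, and the last 30 of them are not printed. Capitals mark a CTTTGA core, which reads TCAAAG where it lies on the other strand.
Wnt3a (chr11:59290782-59291001, minus strand): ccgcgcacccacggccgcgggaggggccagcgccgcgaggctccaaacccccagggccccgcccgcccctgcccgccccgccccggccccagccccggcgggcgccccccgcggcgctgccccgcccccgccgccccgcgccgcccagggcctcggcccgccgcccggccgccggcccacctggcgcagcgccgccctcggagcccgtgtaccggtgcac
Wnt5b, innermost of 3 starts (chr6:119449417-119449636, minus strand): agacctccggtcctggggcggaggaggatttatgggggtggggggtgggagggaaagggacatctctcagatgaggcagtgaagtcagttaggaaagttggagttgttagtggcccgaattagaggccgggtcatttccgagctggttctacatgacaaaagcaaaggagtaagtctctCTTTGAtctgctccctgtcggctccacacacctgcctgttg
Wnt11, upstream of 2 starts (chr7:98834862-98835081, plus strand): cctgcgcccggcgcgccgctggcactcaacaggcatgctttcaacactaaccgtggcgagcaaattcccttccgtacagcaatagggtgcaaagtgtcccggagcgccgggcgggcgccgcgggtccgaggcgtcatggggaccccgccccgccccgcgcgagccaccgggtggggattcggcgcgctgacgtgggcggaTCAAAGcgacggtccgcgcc

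The *Wnt3a* window was 87.6% G and C over its 250 bases, the *Wnt5b* window 55.6% and the *Wnt11* window 70.8%. CTTTGA occurred in 13.8% of all 32851 promoter windows of this length and TCACAC in 12.3%. The windows of *Wnt2b*, *Wnt3*, *Wnt3a*, *Wnt4* and *Wnt6* held neither, and no window of a member held TCACAC. *Wnt5a*, *Wnt7b* and *Wnt8a* had no entry. The gene counts add up all transcripts of a gene, so that the starts of *Wnt5b* and of *Wnt11* were not told apart in the levels.

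Of the ligands known for signalling without beta-catenin, *Wnt5a* was the most abundant and the one highest in mesoderm. It is required for outgrowth of the body axis and limbs and lies on chromosome 14, 28504750 to 28527448, plus strand. Mesoderm held 2491 of its reads, against 650 for endoderm and 805 for epiblast, with RPKM of 14.3, 3.65 and 4.41. Mesoderm was 3.91-fold above endoderm (3.58 to 4.27) and 3.23-fold above epiblast (2.99 to 3.51), both of which met the criteria, whereas epiblast and endoderm were 1.21-fold apart (1.09 to 1.34). Its exons share 358 bases with those of an antisense gene, *Gm2670*, that is not listed in the tables, and the use of strand in counting is not given in the sources used here.

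*Wnt5b*, the close relative of *Wnt5a*, had its peak in epiblast instead. The gene spans chromosome 6, 119432531 to 119544347, minus strand. It had 202, 295 and 631 reads in endoderm, mesoderm and epiblast, and RPKM of 2.03, 3.03 and 6.20. Epiblast was 3.05-fold above endoderm (2.60 to 3.59) and 2.05-fold above mesoderm (1.78 to 2.36, FDR = 7.67e-25 in the exact test). Both differences met the criteria, but the latter stands close to the Fold Change threshold and no longer met the criteria when 1 was added to each RPKM or when the libraries were set to the same RPKM total. Mesoderm exceeded endoderm by 1.49-fold (1.24 to 1.79). *Wnt5a* was higher than *Wnt5b* in endoderm and mesoderm and lower in epiblast, and their RPKM intervals did not overlap in any of the layers.

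*Wnt11*, known for its part in heart and kidney development, was the only member with its highest value in endoderm, and it was low throughout. It lies on chromosome 7, 98835112 to 98855195, plus strand. Reads were 86, 74 and 28, and RPKM 0.741, 0.650 and 0.235 in endoderm, mesoderm and epiblast. Endoderm and mesoderm were 1.14-fold apart (0.826 to 1.58, FDR = 0.470 in the exact test), which this depth cannot tell from equal values. Endoderm was 3.15-fold (2.03 to 5.01) and mesoderm 2.76-fold (1.77 to 4.43) above epiblast, both under the RPKM threshold. The processed pseudogene *Gm8398* lies within its exons on the other strand and shares 364 bases with them, so the count of *Wnt11* is uncertain.

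*Wnt2b* was the other ligand with its highest value in mesoderm. With its relative *Wnt2* it is known for its part in lung specification, and it lies on chromosome 3, 104945272 to 104961921, minus strand. Mesoderm held 1852 reads of it and epiblast 1203, while endoderm held 84, for RPKM of 12.7, 7.88 and 0.564. Mesoderm was 22.5-fold (18.1 to 28.3) and epiblast 14.0-fold (11.2 to 17.6) above endoderm, and both met the criteria. The mesoderm value exceeded that of epiblast by 1.61-fold (1.5 to 1.73), short of the Fold Change threshold, so that *Wnt2b* differed from *Wnt5a* in its epiblast level, at 62.1% of the mesoderm level against 30.9%. The 6 mesoderm markers were in the epiblast library at 1.89% (*Kdr*), 5.18% (*Foxf1*), 15.0% (*Hand1*), 23.0% (*Mesp1*), 38.2% (*Lefty2*) and 88.2% (*Tbx6*) of their mesoderm RPKM. The 62.1% of *Wnt2b* thus lay within the range of the markers, and the part of such cells in the epiblast value of *Wnt2b* was not tested.

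The remaining 3 members, *Wnt4*, *Wnt6* and *Wnt7b*, are known mainly from later organs, *Wnt4* from the kidney and female gonad, *Wnt6* as an epithelial ligand and *Wnt7b* from the placenta and lung. *Wnt6* (chromosome 1, 74771892 to 74785322, plus strand) had 42, 83 and 284 reads and RPKM of 0.488, 0.983 and 3.22 in endoderm, mesoderm and epiblast. Its epiblast value was 6.60-fold above endoderm (4.76 to 9.35) and 3.27-fold above mesoderm (2.55 to 4.23). *Wnt6* was the highest of the members whose RPKM stayed under 5, just as *Wnt5b* was the lowest of those over it.

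*Wnt4* (chromosome 4, 137277489 to 137299726, plus strand) had 32, 129 and 151 reads and RPKM of 0.201, 0.826 and 0.925. Endoderm was the low layer, 4.11-fold under mesoderm (2.77 to 6.26) and 4.60-fold under epiblast (3.13 to 6.97). Mesoderm and epiblast could not be told apart at this depth (1.12-fold, 0.879 to 1.43, FDR = 0.461 in the exact test).

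*Wnt7b* (chromosome 15, 85535437 to 85582473, minus strand) was the member with the fewest reads, with 16 for endoderm, 4 for mesoderm and 90 for epiblast. Its RPKM was 0.109, 0.0279 (counting interval 0.0076 to 0.0714) and 0.60, and it was the only member lowest in mesoderm. The epiblast value was 21.5-fold that of mesoderm, with an interval from 8.12 to 80.7 because of the 4 reads there, and 5.49-fold that of endoderm (3.20 to 10.01). Its exons share 324 bases with the antisense gene *AU022754*.

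**Figure D2:**
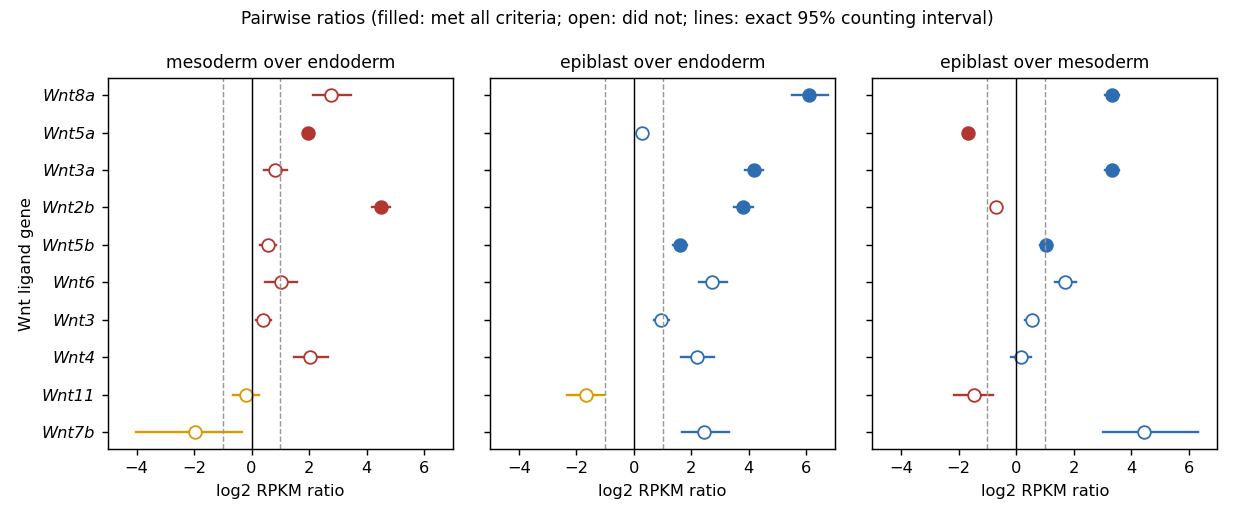
Log2 RPKM ratios of each pair of libraries for the 10 genes, ordered as in the plot of levels, with lines for the exact 95% counting interval, dashed lines at a Fold Change of 2, color for the layer with the higher value and filled circles where all criteria were met. Filled circles are 2 for mesoderm over endoderm, 4 for epiblast over endoderm and 4 for epiblast over mesoderm, of which *Wnt5a* points to mesoderm.

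The counts of members that differed were then set beside the share of all tested genes that differed in the same way. Between endoderm and mesoderm, *Wnt2b* and *Wnt5a* met the criteria, 2 of the 10 members against 11.9% of 17194 genes, and with 10 members these shares are close. Both were higher in mesoderm, as were 4.41% of all genes, and none in endoderm, as were 7.44%. The median log2 ratio of endoderm over mesoderm was -0.92 for the members and -0.03 for all genes tested. Without the RPKM threshold, 5 of the 10 differed, with *Wnt4*, *Wnt6* and *Wnt8a* added, against 27.2% of all genes. The RPKM threshold was passed by 2 members in this pair, 4 in endoderm against epiblast and 5 in mesoderm against epiblast. No biological spread enters the test. When a biological coefficient of variation of 0.4 was assumed in edgeR's exact test, *Wnt2b* alone met the criteria here.

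Between endoderm and epiblast, 4 of the 10 members met the criteria, against 12.6% of 17267 genes. All 4 (*Wnt2b*, *Wnt3a*, *Wnt5b* and *Wnt8a*) were higher in epiblast, the direction of 4.58% of all genes, while 8.02% of all genes were higher in endoderm. The median log2 value of endoderm over epiblast was -2.33 for the members and -0.02 for all genes. Without the RPKM threshold 8 of the 10 differed (against 28.1% of all genes), and of these *Wnt11* was the one higher in endoderm. At the assumed coefficient of 0.4, *Wnt3a* and *Wnt8a* met the criteria and *Wnt2b* and *Wnt5b* did not, and at 0.2 *Wnt5b* alone was lost.

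Between mesoderm and epiblast, *Wnt3a*, *Wnt5b* and *Wnt8a* were higher in epiblast and *Wnt5a* in mesoderm, 4 of the 10 members against 5.04% of 17100 genes. The share of all genes higher in mesoderm was 2.58%, and 2.45% were higher in epiblast. For the log2 ratio of mesoderm over epiblast, the median was -0.79 for the members and 0.04 for all genes. Without the RPKM threshold the count was 7 of the 10 against 16.2% of all genes. At the assumed coefficient of 0.4 no member met the criteria in this pair, with FDR of 0.0129 for *Wnt8a* and 0.0131 for *Wnt3a* in edgeR's exact test and 4 members under an unadjusted p of 0.05, and at 0.2 *Wnt5b* alone was lost. In the 3 pairs together 5 members met the criteria at least once, against 16.3% of all 17633 genes, and these were the 5 members with an RPKM over 5. The pairs share libraries, so that their counts are not independent of each other.

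Because RPKM is per length, the make-up of the ligand RNA can be compared within a library. In endoderm *Wnt5a* made up 34.7% of the summed RPKM of the 10 genes, *Wnt5b* 19.3% and *Wnt3* 15.2%. In mesoderm *Wnt5a* held 37.1% and *Wnt2b* 33.0%, and no other member exceeded 7.88%. In epiblast *Wnt8a* held 38.1%, *Wnt3a* 21.3% and *Wnt2b* 12.0%, with *Wnt5a* down to 6.73%. Thus, at the lengths in the tables, *Wnt5a* led in both endoderm and mesoderm, at close shares of unlike sums, and *Wnt8a* led in epiblast.

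The order of levels was firmest in epiblast, where 1 of 9 pairs of neighbors in the order had overlapping counting intervals (*Wnt6* and *Wnt3*). In mesoderm 5 of 9 and in endoderm 7 of 9 such pairs overlapped, so that most places in the endoderm order are open to counting error. The lengths used for RPKM do not match the annotated transcripts in every case. For *Wnt5a* the tables gave 4273 bases and the GENCODE M21 transcript closest in length had 3650, and for *Wnt8a* they gave 1519 against 1746. Another *Wnt5a* transcript had 7010 bases, and a longer length lowers RPKM. Whether *Wnt5a* still exceeds *Wnt2b* in mesoderm (14.3 against 12.7) at such a length was not tested. The ratios between layers do not depend on this, since each gene had 1 length in all 3 tables.

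**Figure D3:**
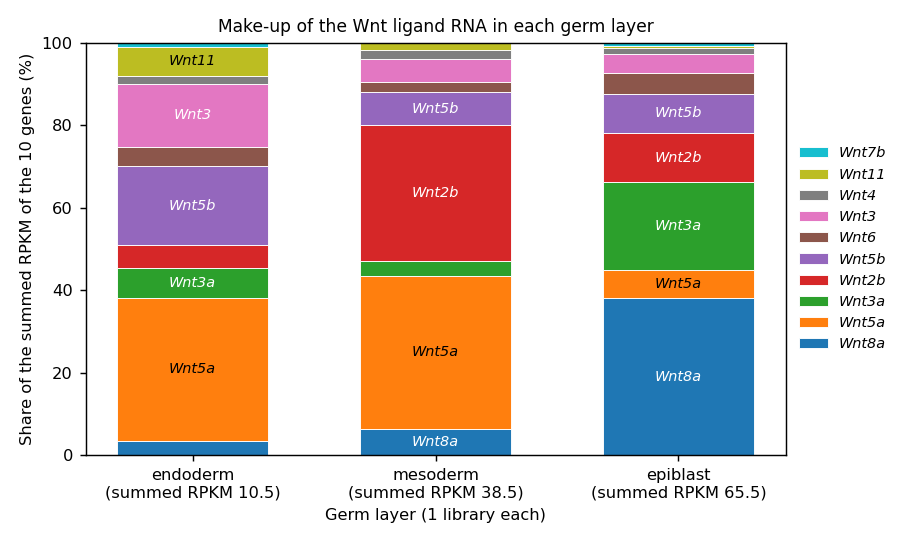
Stacked bars of the share (%) that each of the 10 genes takes of their summed RPKM in endoderm, mesoderm and epiblast, 1 library each, with the sum under each bar. *Wnt5a* takes 34.7% in endoderm and 37.1% in mesoderm, *Wnt2b* takes 33.0% in mesoderm, and *Wnt8a* and *Wnt3a* take 38.1% and 21.3% in epiblast.

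Coverage, the percentage of the gene length with reads over it, was a readout that the levels above do not use. Over the 30 values of 10 genes in 3 libraries it ran from 8.06% for *Wnt7b* in mesoderm to 99.8% for *Wnt8a* in epiblast, and 11 values were over 90%. Coverage moved with the reads per length, and 4 values were under 50%: *Wnt7b* in endoderm and mesoderm, *Wnt4* in endoderm and *Wnt11* in epiblast. *Wnt11* was covered less than a member with a like number of reads. In endoderm its 86 reads covered 53.95% of a length of 2788 bases, whereas the 90 reads of *Wnt3a* covered 85.2% of 2791 bases. In epiblast *Wnt5b* was covered to 82.01% with 631 reads, and *Wnt3* to 92.42% with 415 reads over a longer gene.

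**Figure D4:**
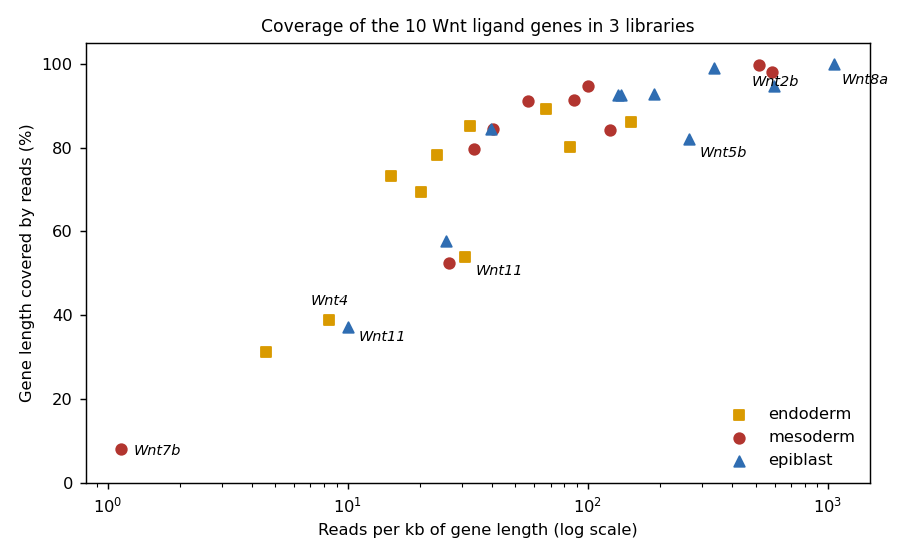
Percentage of the gene length covered by reads against reads per kb (log scale) for the 10 genes in endoderm (squares), mesoderm (circles) and epiblast (triangles), 1 library each. Coverage climbs with reads per kb from 8.06% for *Wnt7b* in mesoderm to 99.8% for *Wnt8a* in epiblast, with *Wnt11* in endoderm and mesoderm and *Wnt7b* and *Wnt5b* in epiblast under the other points of like depth.

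For each of the 5 members over an RPKM of 5, the 3 genes with the most similar profile were sought among 9135 genes that passed RPKM 5 in some library. The profile was the percentage of the RPKM of a gene that fell in each of the 3 libraries, and likeness was the sum of the absolute differences in percentage points. *Wnt8a* was closest to *Fam57b* (1.44 points), *Nkx1-2* (2.08) and *Pou3f1* (5.60), and *Wnt3a* to *Rapgef5* (1.41), *Gabra3* (1.74) and *Nkx1-2* (4.92). The homeobox gene *Nkx1-2* was thus on both lists, with RPKM of 67.8 in epiblast against 6.64 (mesoderm) and 1.79 (endoderm).

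For *Wnt2b*, *Fgf15* (2.80) and *Rasl11a* (2.95) were close, and the growth factor gene *Fgf15* had RPKM of 0.557, 23.3 and 14.1. For *Wnt5a* they were *Anxa2* (3.30), *Prkd1* (3.32) and *Cdh2* (3.48), of which *Cdh2*, the N-cadherin gene, had RPKM of 19.4, 71.8 and 20.03. For *Wnt5b* they were *Ctbp2* (1.56), *Zmat3* (2.09) and *Tspan5* (2.14). The profile of *Wnt5b* was a common one, with 63 genes within 10 points, against 16 to 23 genes for the other 4. With 3 points to a profile, many genes come close, and the measure is a description only.

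Of the 9 other Wnt genes, 8 were listed and *Wnt10b* was not. *Wnt2* was the only one to pass an RPKM of 1. Mesoderm held 737 reads of it, epiblast 112 and endoderm 6, with RPKM of 8.53, 1.24 and 0.0681. Mesoderm was 125.3-fold above endoderm (57.3 to 342.4) and 6.88-fold above epiblast (5.63 to 8.47), and both met the criteria. *Wnt2* was in epiblast at 14.5% of its mesoderm level, whereas *Wnt2b* was at 62.1%. With *Wnt2* and the rest counted, the 10 members made up 93.6%, 80.3% and 96.6% of the RPKM of all Wnt genes (endoderm, mesoderm, epiblast).

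Of the members, 3 have another Wnt gene as neighbor in the genome. *Wnt3* and *Wnt9b* lie 24.3 kb apart and *Wnt3a* and *Wnt9a* 16.2 kb apart, both pairs on opposite strands, and *Wnt6* and *Wnt10a* lie 6.2 kb apart on the same strand. The neighbors were low in every layer: *Wnt9a* had 41, 32 and 22 reads in endoderm, mesoderm and epiblast, *Wnt9b* 18, 30 and 54, and *Wnt10a* 2, 0 and 8. *Wnt9a* thus had fewer reads in epiblast than in endoderm, while its neighbor *Wnt3a* had its highest value in epiblast. The *Wnt9a* difference was 1.91-fold (1.11 to 3.37, FDR = 0.0182 in the exact test). It did not meet the criteria, even without the RPKM threshold.

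Of the genes that acylate, export and inactivate the ligands, *Wls*, *Porcn* and *Tmed2* were lower in epiblast than in endoderm, unlike the summed ligand RNA. *Wls*, the carrier that brings Wnt proteins to the cell surface, had RPKM of 79.8 (mesoderm), 57.9 (endoderm) and 27.4 (epiblast), so that epiblast was 2.92-fold and 2.12-fold under the others. *Tmed2*, a cargo receptor of the secretory route, had RPKM of 192.3 in endoderm against 87.9 in epiblast. *Porcn*, which adds the lipid, had RPKM of 13.1, 3.16 and 4.01 (endoderm, mesoderm, epiblast), and was 4.15-fold and 3.27-fold higher in endoderm than in the other 2 layers. *Notum*, which removes the lipid, had RPKM of 1.18, 1.96 and 5.48, and its epiblast value was 4.66 times that of endoderm. Of the 6 genes of this list, 1 met the criteria in endoderm against mesoderm and 4 in endoderm against epiblast (3 of them higher in endoderm). Between mesoderm and epiblast 2 met them. The shares of all genes in these pairs were 11.9%, 12.6% and 5.04%.

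Among the 10 Frizzled receptors, 7 differed in endoderm against mesoderm (3 higher in endoderm) and 6 in endoderm against epiblast (4 higher in endoderm). In the remaining pair 3 differed (2 higher in mesoderm). The shares of all genes that differed in these pairs were 11.9%, 12.6% and 5.04%. *Fzd10* had RPKM of 0.871, 6.56 and 19.7 in endoderm, mesoderm and epiblast and its epiblast value was 22.7 times that of endoderm. *Fzd5* had 13.5, 1.33 and 4.72 and *Fzd6* 7.09, 0.575 and 2.54, and both were highest in endoderm. *Fzd4* had 5.99, 8.19 and 0.775. *Fzd2*, the most abundant in mesoderm and epiblast, had 18.2, 48.2 and 38.6, while *Fzd7* was higher in endoderm (21.2). *Fzd5* and *Fzd6* were thus highest in the layer with the least ligand RNA, and *Fzd10* in the layer with the most.

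Of the 6 co-receptors, 3, 4 and 0 met the criteria in the same order of pairs, against 11.9%, 12.6% and 5.04% of all genes. *Lrp5* had RPKM of 52.7, 17.6 and 23.8 (endoderm, mesoderm, epiblast), against 27.1, 83.9 and 89.98 for *Ptk7*, a co-receptor of the polarity branch. *Ror2*, a receptor for Wnt5a, had 11.7, 16.2 and 24.5, so that its highest layer was epiblast and not that of *Wnt5a*. Of the 9 genes for R-spondins, Lgr receptors and receptor turnover, 1, 3 and 1 met the criteria in the 3 pairs. *Rspo3*, which enhances Wnt signalling, had RPKM of 3.07, 36.1 and 12.9 and was 11.8-fold higher in mesoderm than in endoderm. Between endoderm and epiblast, 2 of the 3 were higher in epiblast and *Lgr5* was higher in endoderm (5.25 against 0.711).

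Downstream, 2, 3 and 1 of the 17 genes of the beta-catenin pathway met the criteria in the 3 pairs. These shares were near those of all genes (11.9%, 12.6% and 5.04%). *Lef1* had the largest fold among the genes that met the criteria, with RPKM of 5.78, 71.4 and 32.2. *Ctnnb1*, which encodes beta-catenin, was the most abundant of the list, with 207.4, 261.7 and 300.0. Between endoderm and epiblast, 2 of the 3 were higher in epiblast and *Tcf7l2* was higher in endoderm (16.5 against 6.58). Of 10 planar cell polarity genes, 2, 3 and 1 met the criteria. *Ankrd6* among them was lowest in endoderm, with RPKM of 0.903, 5.25 and 7.18. The other 2 that met them between endoderm and epiblast were higher in endoderm. These were *Vangl1* (17.3 against 5.13) and *Daam1* (15.3 against 6.31). Of 13 genes that respond to Wnt signals, 6, 7 and 4 met the criteria, against 11.9%, 12.6% and 5.04% of all genes. All 7 that differed between endoderm and epiblast were higher in epiblast, as were 4.58% of all genes. Between endoderm and mesoderm, 5 were higher in mesoderm and 1 in endoderm. Between mesoderm and epiblast, 3 were higher in epiblast and 1 in mesoderm. *T* had RPKM of 93.7, 74.8 and 228.5 and *Cdx1* 3.06, 15.9 and 48.7. *Cdx4* had 0 reads in endoderm and 408 in mesoderm, at least 138.7-fold higher in mesoderm when 3 reads are allowed in endoderm. Of 13 secreted antagonists, 3 met the criteria in each pair, among them *Cer1*, with RPKM of 137.9, 47.4 and 0.659, and *Dkk1*, with 36.1, 8.43 and 3.79, both lowest in epiblast. *Sfrp2*, the remaining one, had 2.76, 9.54 and 27.1 and was highest in epiblast.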

How the data were processed

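The 3 libraries, 1 per germ layer, were sequenced from both ends of each fragment (Illumina HiSeq). For each gene with a read, the authors deposited 4 values: its RPKM, its count of reads that mapped uniquely, its length in bases, and its coverage in percent of this length; the totals of reads were 41654074, 40849823 and 42705496. The deposited RPKM equals the reads per length and per total within a relative difference of 2.03e-07. TopHat and the builds mm10 and mm9 are named in the submitters' processing notes, while the counting program and the annotation of the gene tables are not given in the sources used here.

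Genes not listed in a table were set to 0 reads, and 0 reads can stand for as many as 3. Differential expression was called with the criteria of the study in each of the 3 pairs: RPKM>5 in at least 1 of the pair, Fold Change>2 and FDR<0.001, by the Audic and Claverie exact test (two-sided) with Benjamini-Hochberg adjustment over genes with a read in either library. Other settings tried were RPKM>1, RPKM>10, no RPKM threshold, Fold Change>4, Benjamini-Yekutieli adjustment, no FDR criterion, pseudocounts of 0.1 and 1, and 4 scalings of the libraries. Intervals of 95% are exact Poisson for levels and exact Clopper-Pearson for ratios. With 1 library per layer, there is no spread to estimate, which the quasi-likelihood test of edgeR needs; the exact test of edgeR was run as an alternative, assuming a biological coefficient of variation (BCV) of 0.2 or 0.4.

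The members and all gene lists were chosen with earlier results of these data known. Genes named were the members, the other Wnt genes, the called genes with the largest fold (at most 4) and the gene of highest RPKM of each list, and the 3 genes closest in profile to a member over RPKM 5; not all genes that the rule allows are written out, and 1 is not reported here. Positions come from GENCODE M21 (GRCm38) and promoter windows from RefSeq (GRCm38.p6), where 7 of 10 members had an entry. Older symbols were matched for *Foxf1* (Foxf1a) and *Trabd2b* (Gm12824). A planned comparison of protein sequences, the splicing events, the microarray and the qPCR were not analysed here. The software was edgeR 4.0.16 in R 4.3.3, and Python 3.11.15 with SciPy 1.17.1, numpy 2.4.6, pandas 2.3.3 and matplotlib 3.10.9.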

Additional observations from a re-analysis of the deposited data

How the results depend on the processing

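No paired analysis was possible because each layer has 1 library, and for the same reason no library could be left out. The number of Wnt ligand genes that met the criteria (2 in endoderm against mesoderm, 4 in endoderm against epiblast, 4 in mesoderm against epiblast) followed the thresholds: without the RPKM threshold it was 5, 8 and 7, with RPKM>10 it was 2 between endoderm and epiblast, and with Fold Change>4 it was 1 between endoderm and mesoderm and 2 between mesoderm and epiblast. The share of all genes at a BCV of 0.4 is not given here, so the member counts there have no background. With the exact test of edgeR and a BCV of 0.4 the counts were 1, 2 and 0. For that 0, 4 members had an unadjusted p under 0.05 in edgeR's exact test, and the smallest FDR was 0.00588, for *Wnt7b*, which is under the RPKM threshold. The spread between embryos or dissections is not known, so neither assumed coefficient can be checked. No log2 ratio of a member changed sign, but only the 4 scalings could have changed one. The threshold, adjustment and edgeR settings left the ratios as they were, and a pseudocount keeps the sign. Of 420 log2 ratios of members over all settings, 389 kept their side of the criteria, 18 no longer met them and 13 newly met them. The 2.05-fold difference of *Wnt5b* between mesoderm and epiblast was lost under 6 of the alternatives, with a log2 ratio of mesoderm over epiblast of -0.84 with a pseudocount of 1 and -0.98 at the same RPKM total. TMM scaling moved all log2 ratios of endoderm over mesoderm and over epiblast by 0.11, and upper-quartile scaling moved those of endoderm over epiblast by -0.13; the counts of members highest in each layer were the same under all 4 scalings. Depth limits the low members most, with 4 reads of *Wnt7b* in mesoderm.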
